A study of Homo sapiens with 4 samples.

Results

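Counts on miRNA hairpins were examined in small RNA libraries from small extracellular vesicles of HT29 cells, an established human colon cancer line with mutant p53. A hairpin feature is 1 annotated miRNA precursor, and 92 of the 2234 hairpin features in the deposited table had at least 3 counts summed over the 4 libraries. The table held 155642 features in all. The hairpins were chosen by their total count, so their abundance is given as a description. The rule did not use the difference between the groups, but the choice was made with earlier results of these data known. At the edge of the rule, 18 hairpins had exactly 3 counts and 30 hairpins left out had exactly 2.

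The 4 libraries formed 2 groups of 2, vesicles of HT29 cells carrying an shRNA against p53 and vesicles of HT29 cells carrying a non-targeting shRNA, called control here. Cells of both groups were at passages 5 to 15, vesicle RNA was isolated on a column, and inserts of 18 to 40 nt were selected. The series concerns gain-of-function p53 carried by small vesicles to fibroblasts. The labels state neither whether the cells were 1 clone nor whether replicate libraries stem from different cultures. The p-values below measure only the spread between these libraries, which may be technical. Non-coding features alone are in the table, and the knockdown of p53 was not checked here.

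A miRNA gene is transcribed as a long primary transcript that folds into a hairpin. Drosha with its partner DGCR8 cuts off the base of the hairpin, and Dicer then cuts off the loop, which leaves a short duplex of the 5′ and 3′ arms. The mature miRNA is 1 of these arms, held by an Argonaute protein, and its seed guides it to target mRNAs. Many hairpins lie in introns or exons of other genes, and their sequence is then also part of the host transcript.

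The counts analysed here are not levels of mature miRNAs. All 2459 mature miRNA features had a count of 0 in every library, and counts fell on hairpins only where they had bases that belong to no other feature, called own bases here. Of 735 hairpins with no own base 0 had a count, against 211 of the 1499 hairpins with own bases (14.1%). RefSeq gives 110 mature positions inside 77 of the 92 hairpins, and 0 own bases lay on them. Some own-base stretches were shorter than the smallest insert of 18 nt. Of 28 hairpins whose stretches were all under 18 bases and enclosed by other features 0 had a count, against 52 of the 461 with stretches as short but open to sequence outside any feature (11.3%). All 25 of the 92 hairpins with such short stretches were open at an end, and their 455 counts must come from reads that ran past the hairpin, if inserts were of the selected size.

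The sequences below show which bases carried the counts of hairpins that the results turn on. They are RefSeq hairpins of GRCh38.p14, written 5′ to 3′, with own bases in capitals. Bases shared with another feature, in most cases a mature or an inner hairpin feature, are in lower case. In MIR9901 the mature miRNA begins only at position 34163601, and the lower-case bases before it are shared with a feature whose kind was not examined. In the first 8, an inner hairpin feature covers both arms and the loop, so that the capitals are the outer flanks alone.
MIR671: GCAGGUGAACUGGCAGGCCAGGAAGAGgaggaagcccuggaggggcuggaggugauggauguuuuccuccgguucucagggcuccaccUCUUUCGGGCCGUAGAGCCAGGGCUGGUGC
MIR431: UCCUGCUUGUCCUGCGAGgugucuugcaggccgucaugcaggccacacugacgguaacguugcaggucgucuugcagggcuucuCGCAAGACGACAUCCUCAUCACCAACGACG
MIR191: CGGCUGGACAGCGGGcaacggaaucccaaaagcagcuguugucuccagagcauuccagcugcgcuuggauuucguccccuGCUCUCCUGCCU
MIR103A2: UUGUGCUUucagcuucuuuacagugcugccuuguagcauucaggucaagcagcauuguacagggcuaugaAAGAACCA
MIR26A1: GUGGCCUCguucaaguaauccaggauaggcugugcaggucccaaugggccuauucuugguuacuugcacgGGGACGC
MIR378A: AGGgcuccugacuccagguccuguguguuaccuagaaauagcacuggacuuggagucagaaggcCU
MIR106B: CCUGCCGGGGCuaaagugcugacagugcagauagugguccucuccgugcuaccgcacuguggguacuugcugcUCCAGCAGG
MIR25: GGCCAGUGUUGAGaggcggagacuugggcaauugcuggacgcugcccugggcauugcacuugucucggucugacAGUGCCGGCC
MIR2110: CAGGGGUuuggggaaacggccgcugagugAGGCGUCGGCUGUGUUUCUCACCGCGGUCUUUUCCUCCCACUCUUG
MIR6125: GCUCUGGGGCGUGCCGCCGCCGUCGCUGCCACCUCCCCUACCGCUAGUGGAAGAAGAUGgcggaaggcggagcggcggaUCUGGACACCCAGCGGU
MIR4741: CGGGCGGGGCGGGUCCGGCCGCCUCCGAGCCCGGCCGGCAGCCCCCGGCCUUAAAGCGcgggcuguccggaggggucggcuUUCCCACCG
MIR9901: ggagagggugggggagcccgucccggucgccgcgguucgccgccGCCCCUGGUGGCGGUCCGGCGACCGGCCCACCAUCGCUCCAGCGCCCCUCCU
In MIR378A, in an intron of PPARGC1B, a coactivator gene of mitochondrial metabolism, the countable sequence was 5 bases, whereas in MIR6125 it was 76 bases, the larger part of the hairpin.

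**Figure D1:**
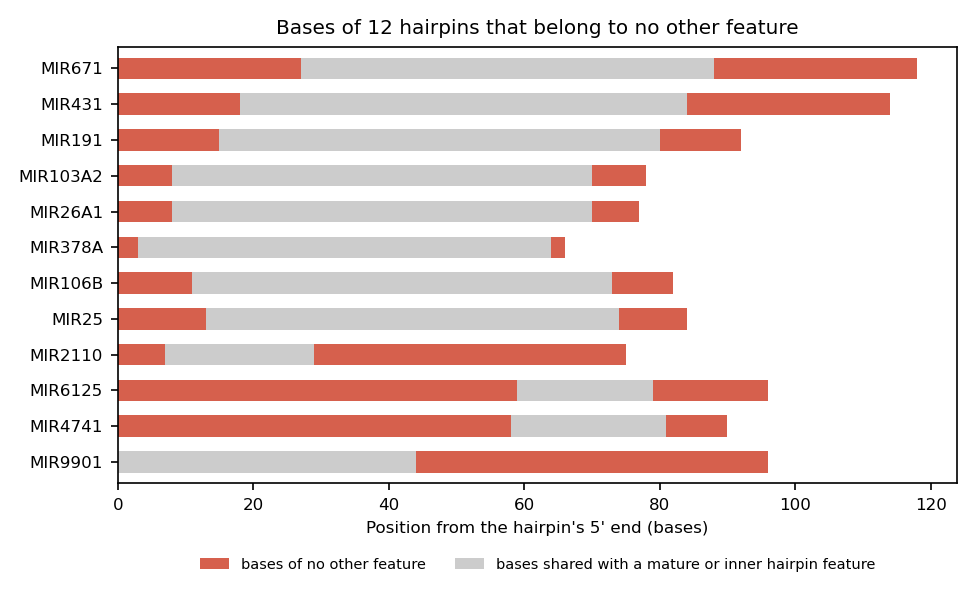
Map of the 12 hairpins printed above, with the position from the hairpin's 5′ end in bases on the horizontal axis. Red marks own bases, grey marks bases shared with another feature. This is a mature or an inner hairpin feature except in the first part of MIR9901, where its kind was not examined. In the upper 8 rows the red bases are at both outer ends, in MIR2110, MIR6125 and MIR4741 they also cover the arm with no mature feature and the loop, and in MIR9901 they lie on the 3′ side.

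The mature sequences of 6 arms, from MIR93 and from 5 of the hairpins above, show what lay outside the counted bases, with the seed (bases 2 to 8) in capitals. miR-106b-5p and miR-93-5p, from neighbouring hairpins of the MCM7 gene, have the same seed, and the seed of miR-25-3p, from the same cluster, is another.
hsa-miR-106b-5p: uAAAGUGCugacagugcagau
hsa-miR-93-5p: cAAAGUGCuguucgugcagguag
hsa-miR-25-3p: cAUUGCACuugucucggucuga
hsa-miR-26a-5p: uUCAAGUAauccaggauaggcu
hsa-miR-431-5p: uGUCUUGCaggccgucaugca
hsa-miR-671-5p: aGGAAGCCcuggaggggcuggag
Among 106 mature sequences that RefSeq gives for 77 of the hairpins, 101 different seeds occurred. Of these, 5 seeds were shared by a pair of hairpins each, in the pairs MIR106B and MIR93, MIR26A1 and MIR26A2 (on both arms), MIR33A and MIR33B, and MIR516A2 and MIR516B2.

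Library totals were 2611032 and 1940942 counts with p53 shRNA and 1099694 and 938754 counts in controls. The p53 shRNA libraries thus had 2.23 times the depth. The 92 hairpins had 1405 and 1027 counts with p53 shRNA and 584 and 697 counts in controls. Their share of all counts was 0.0538% (95% Wilson interval 0.0511 to 0.0567) and 0.0529% (0.0498 to 0.0562) with p53 shRNA, against 0.0531% (0.0490 to 0.0576) and 0.0742% (0.0689 to 0.0800) in controls. The mean share was 0.0534% ± 0.000635 with p53 shRNA and 0.0637% ± 0.0149 in controls (SD, n = 2 each). Control 1 lay between the p53 shRNA libraries and control 2 above them, so the groups overlapped on library totals. With TMM factors, which the tests below use, the sum was 502 and 440 CPM with p53 shRNA and 861 and 690 CPM in controls, lower without overlap. Without MIR7641-2 the TMM-scaled sum of the other hairpins overlapped, at 379 and 354 CPM with p53 shRNA and 484 and 288 CPM in controls. These intervals cover counting error only. The number of the 92 hairpins with a count was 80 and 74 with p53 shRNA and 58 and 43 in controls, and 62.2, 59.1, 54.6 and 43 in the same order of libraries when each was thinned to the 938754 counts of the shallowest.

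A few hairpins held most of the counts. MIR7641-2, MIR671 and MIR6125 together held 54.5% of the 3713 counts on the 92 hairpins, and the 10 most counted held 74.7%. At the other end, 51 hairpins had 3 to 9 counts, and 28 hairpins had a count in all 4 libraries. Another 119 hairpins with 1 or 2 counts stayed below the rule.

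**Figure D2:**
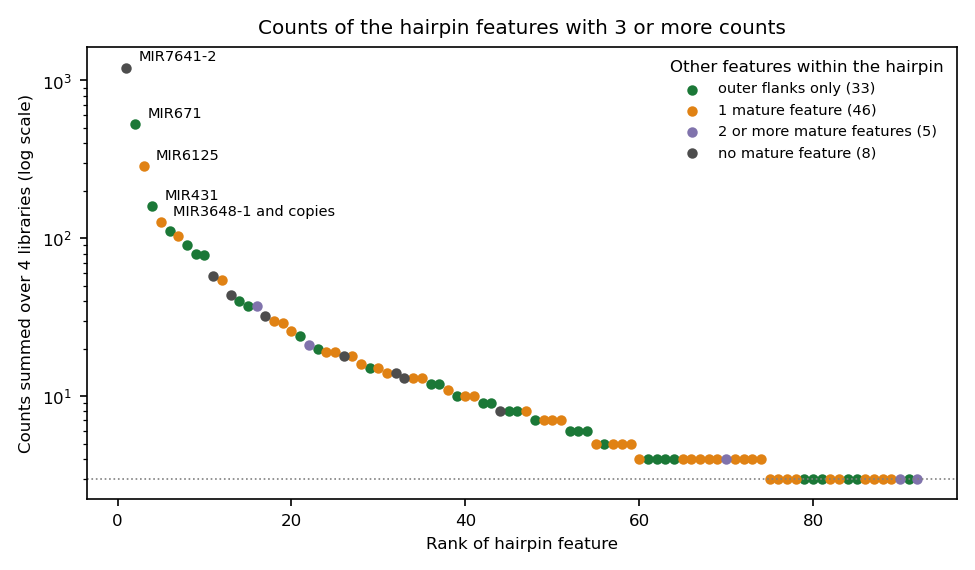
Counts summed over the 4 libraries (log scale) for the 92 hairpins in order of rank, coloured by the other features that lie within the hairpin. The dotted line is the minimum of 3 counts, and the 5 hairpins with the most counts are named.

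The hairpins were of 4 kinds by what the table counts separately inside them. In 33 hairpins a nested hairpin feature covered both arms and the loop and left the outer flanks, and these had 35.5% of the counts. A single mature feature lay in 46 hairpins, with 25.1% of the counts, and mature features on both arms in 5, with 1.83%. The last 8 hairpins, among them MIR7641-2, MIR3656 and MIR3687, had no mature feature and held 37.6% of the counts, which may include reads of their arms. Outer flanks were counted in 62 of the 354 hairpins that have them as their only own bases, against 31 of the 412 with mature features on both arms.

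Of these hairpins, 13 passed edgeR's filter on low counts and were tested, with p-values adjusted over the 2780 features in the fit. None of the 13 was called at an adjusted p of 0.05, as 0.0% of all features tested were (edgeR's quasi-likelihood test). Their adjusted p-values were 0.424 to 0.998. At an unadjusted p under 0.05, 0 of the 13 stood against 12.2% of all features. DESeq2's Wald test called 0 of the 10 hairpins to which it gave an adjusted p, and 1.65% of all features given one. It gave none to MIR3656, MIR516B2 and MIR3687, and 1 of the 13 had an unadjusted p under 0.05. limma voom called 0, with 0 at an unadjusted p under 0.05. For DESeq2 and voom the share of all features at this unadjusted p was not worked out, so these counts cannot be set against it. Each log2 change below is p53 shRNA over control on the CPM scale (counts scaled by library totals times TMM factors), with the SE of the difference of group means.

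MIR671 had the most counts among hairpins counted on their outer flanks. It lies on chr7:151238421-151238538 in an exon of CHPF2, an enzyme of chondroitin synthesis, and had 107 and 216 counts with p53 shRNA and 108 and 100 counts in controls. In CPM these were 38.2 and 92.6 with p53 shRNA, against 159 and 99.1 in controls. Both p53 shRNA libraries were below both controls in CPM, but on library totals the groups overlapped. Its log2 change was −0.98 (SE 0.71, edgeR adjusted p = 0.777), and −1.49 to −0.35 with 1 library left out.

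MIR431 belongs to the imprinted miRNA region of chromosome 14 and lies on chr14:100881007-100881120, over an exon of RTL1, a retrotransposon-derived gene, on the opposite strand. It had 66 and 78 counts with p53 shRNA and 7 and 9 counts in controls. In CPM it averaged 28.5 ± 6.98 with p53 shRNA and 9.62 ± 0.998 in controls (SD, n = 2 each). Both p53 shRNA libraries were above both controls, on either scaling. The log2 change was 1.56 (SE 0.26, edgeR adjusted p = 0.552) and 1.53 to 1.90 with any 1 library left out. Whether counting used strand is not stated, so reads of RTL1 and of MIR431 cannot be told apart.

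MIR103A2 lies in an intron of PANK2, a pantothenate kinase of coenzyme A synthesis, on chr20:3917494-3917571. Its 16 flank bases had 31 and 36 counts with p53 shRNA and 5 and 8 counts in controls. The levels were 13.3 ± 3.08 CPM with p53 shRNA and 7.65 ± 0.388 CPM in controls (SD, n = 2 each), a log2 change of 0.78 (SE 0.22, edgeR adjusted p = 0.770; 0.61 to 1.10 with 1 library left out). The groups did not overlap on either scaling.

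MIR26A1, in an intron of the phosphatase gene CTDSPL on chr3:37969404-37969480, had 32 and 12 counts with p53 shRNA and 12 and 22 counts in controls. The levels were 8.29 ± 4.45 CPM with p53 shRNA and 19.7 ± 2.89 CPM in controls (SD, n = 2 each). Its CPM did not overlap between the groups but its share of library totals did, and its log2 change was −1.24 (SE 0.52, edgeR adjusted p = 0.631; −1.83 to −0.57 with 1 library left out). Its paralogue MIR26A2, in an intron of CTDSP2, a phosphatase of the same family, was too low to test, with 3 and 5 counts with p53 shRNA and 1 and 6 counts in controls.

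Another 3 outer-flank hairpins were in the fit, with overlapping groups. MIR7-1, in an exon of HNRNPK, an RNA-binding protein, had 8.22 and 27.4 CPM with p53 shRNA and 14.8 and 14.9 CPM in controls. MIR191 on chr3:49020618-49020709 had 10.7 and 18.4 CPM with p53 shRNA and 19.2 and 3.96 CPM in controls. MIR516B2, of the primate miRNA cluster on chromosome 19, had 2.14 and 9.01 CPM with p53 shRNA and 0 and 9.91 CPM in controls. Their log2 changes of 0.26, 0.37 and 0.02 had SEs of 0.80, 1.06 and 1.81, each larger than the change.

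MIR2110 and MIR3656 were counted over more of the hairpin. MIR2110, on the minus strand at chr10:114174105-114174179 in an exon of CCDC186, had 31 and 26 counts with p53 shRNA and 29 and 17 counts in controls. At 11.1 and 11.1 CPM with p53 shRNA and 42.8 and 16.8 CPM in controls, its groups did not overlap, on either scaling, and its log2 change was −1.41 (SE 0.64, edgeR adjusted p = 0.613; −1.81 to −0.74 with 1 library left out). MIR3656, in an exon of TRAPPC4, a subunit of a vesicle-tethering complex, is annotated on chr11:119018944-119019012. It had 20 and 22 counts with p53 shRNA and 2 and 0 counts in controls. The ratio of its summed counts, corrected for library size, was 6.91, with a counting interval of 1.80 to 58.9. That interval covers counting error alone and leaves out the spread between libraries. Its log2 change of 2.66 (SE 0.92) had the lowest edgeR adjusted p of the 13, 0.424, and was 1.61, 2.91 and 7.09 in the 3 fits with 1 library left out that kept it. The value of 7.09 is set against the remaining control with 0 counts and is no bound, and without p53 shRNA 2 the hairpin did not pass the filter.

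The other 4 tested hairpins lie in or over ribosomal RNA sequence. MIR7641-2, on chr14:75604209-75604261 over the 5S rRNA pseudogene RNA5SP387, had 345 and 201 counts with p53 shRNA and 256 and 406 counts in controls. It averaged 105 ± 26.2 CPM with p53 shRNA and 390 ± 17.3 CPM in controls (SD, n = 2 each), a log2 change of −1.90 (SE 0.26, edgeR adjusted p = 0.556). Both p53 shRNA libraries were below both controls on either scaling, and the change was −2.09 to −1.43 with any 1 library left out. 5S rRNA has many near-identical copies, so reads placed on this hairpin may come from other copies.

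MIR7641-1, over the pseudogene RNA5SP348 on chromosome 11, had 7.50 and 8.58 CPM with p53 shRNA and 4.43 and 13.9 CPM in controls. MIR3648, in the 45S rRNA gene RNA45SN2 on chromosome 21, had 8.57 and 27.9 CPM with p53 shRNA and 39.8 and 9.91 CPM in controls. MIR3687, of the same gene, had 2.86 and 5.57 CPM with p53 shRNA and 14.8 and 0.991 CPM in controls. All of these groups overlapped, with log2 changes of −0.23 (SE 0.72), −0.43 (SE 1.23) and −0.80 (SE 1.49). Both MIR3648 and MIR3687 are features with a pair of annotated loci each.

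Of the 13, 6 had a positive and 7 a negative log2 change, with a median of −0.23, beside 0.05 over all 2780 features. On library totals the medians were 0.28 and 0.49. In CPM, 3 of the 13 were above both controls in both p53 shRNA libraries and 4 were below, beside 22.9% and 18.6% of all features tested. Among the 3 is MIR3656, which passed the filter through its p53 shRNA libraries alone. Over all 92 hairpins, 20 were higher (21.7%) and 13 lower (14.1%) without overlap, beside 23.1% and 16.7% of the features with 3 or more counts. The hairpins' shares in CPM were thus near those of the table. On library totals, 3 of the 13 were higher and 2 lower, beside 33.2% and 12.7% of all features tested. Of the 92 hairpins, 27 were higher and 10 lower on library totals. The matching share of features with 3 or more counts was not worked out, so these counts cannot be read as particular to hairpins. All features in the fit also leaned upward on this scaling, with the median of 0.49 above.

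**Figure D3:**
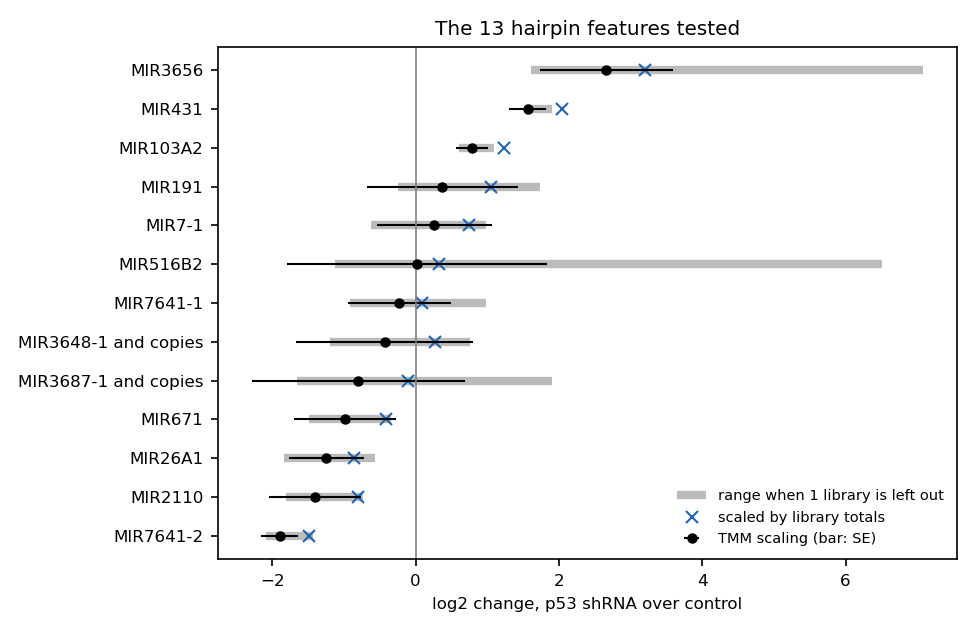
log2 change, p53 shRNA over control, of the 13 hairpins tested (points with SE bars, TMM scaling), with the value on library totals (crosses) and the range with 1 library left out (grey). MIR3656, MIR431 and MIR103A2 lie above 0 throughout, MIR671, MIR26A1, MIR2110 and MIR7641-2 below 0, and the grey ranges of the other 6 cross 0.

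**Figure D4:**
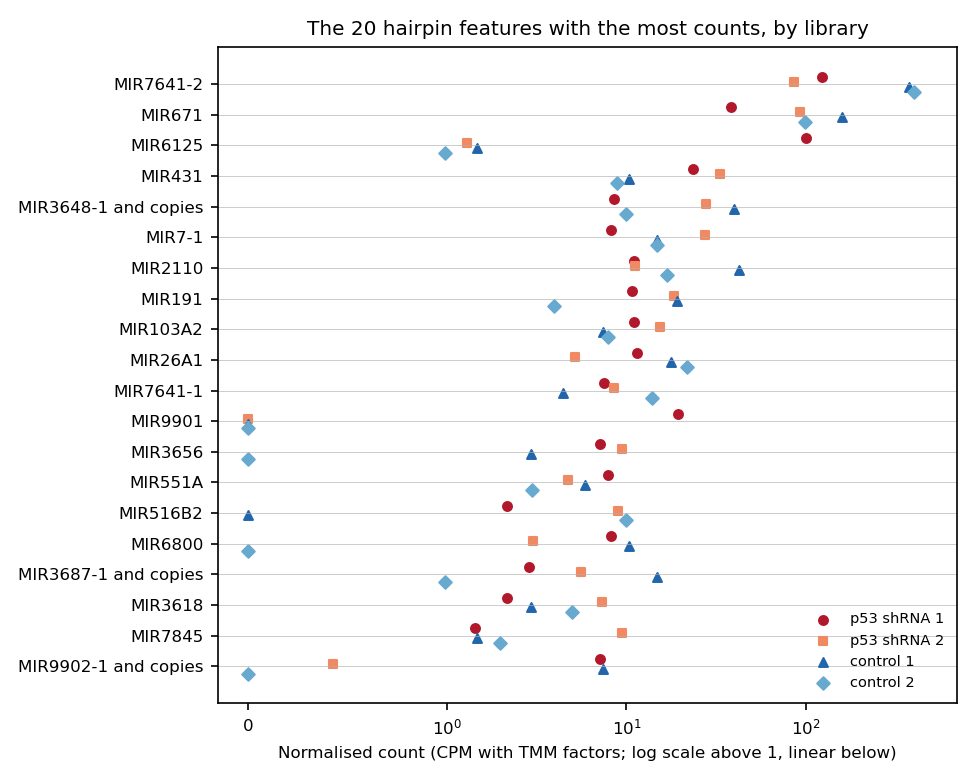
Normalised counts (CPM with TMM factors, log scale above 1 and linear below) in each library of the 20 hairpins with the most counts, p53 shRNA libraries in red and orange and controls in blues. MIR6125 and MIR9901 are high in p53 shRNA 1 alone.

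Some hairpins had nearly all counts in 1 library. Of those with 10 or more counts, 3 had at least 90% of them in 1 library, which was p53 shRNA 1 each time. This was also the deepest library, with 2611032 counts. The matching share of all features was not worked out, so the 3 cannot be read as particular to hairpins. MIR6125, in an exon of the deubiquitinase gene USP15 on chr12:62260359-62260454, had 281 and 3 counts with p53 shRNA and 1 and 1 counts in controls. MIR9901, outside genes on chr16:34163578-34163673, had 54 and 0 counts with p53 shRNA and 0 and 0 counts in controls. MIR4741, in an exon of the DNA repair gene RBBP8 on chr18:22933349-22933438, had 19 and 0 counts with p53 shRNA and 0 and 0 counts in controls. Corrected for library size, the ratio of summed counts of MIR6125 was 46.7 (counting interval 12.8 to 388). The summed counts of MIR9901 and MIR4741 were at least 5.92-fold and 2.08-fold higher with p53 shRNA, taking the floor of 3 counts over the control group. The other p53 shRNA library did not share the high level of any of the hairpins, so these ratios describe p53 shRNA 1 and are no bounds for the group. The GC content of their own bases was 68.4%, 78.9% and 82.1%. Over 37 hairpins with 1 mature feature, these 3 among them, the median was 63.0% and the range 34.2% to 84.6%. The part of GC content in the result was not tested.

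Counts of 0 in a whole group were more frequent in controls. There were 24 hairpins with 0 in both controls (26.1%, beside 20.7% of features with 3 or more counts), and 3 with 0 in both p53 shRNA libraries (3.26%, beside 2.42%). The 24 had 181 counts in all, and 8 of them had counts in 1 p53 shRNA library alone. The greater depth of the p53 shRNA libraries moves with this count, and its part was not tested. The 3 were MIR623, with 2 and 3 counts in controls, MIR12119 with 0 and 3, and MIR5003 with 3 and 0.

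By host locus, hairpins of ribosomal loci and of protein-coding exons had about equal parts of the counts. The 4 at ribosomal loci held 38.4%, the 27 in coding exons 38.6% and the 42 in coding introns 16.6%. The 11 outside genes held 4.26% and the 7 in introns of lncRNAs or pseudogenes 2.07%. The remaining hairpin, MIR4521, overlaps the tRNA gene TRS-GCT4-3 and had 1 and 1 counts with p53 shRNA and 1 and 0 counts in controls. Hairpins in coding exons were counted in 57 of 223 with own bases, those in coding introns in 99 of 807 and those outside genes in 34 of 305. Of 69 in protein-coding genes, 62 lie on the host's strand.

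The sum of the ribosomal hairpins was lower with p53 shRNA, at 152 and 154 plain CPM (counts scaled by the library total alone), against 269 and 459 plain CPM in controls, and it was lower in TMM-scaled CPM as well. MIR7641-2 made up most of it. The coding-exon sum was 237 and 243 plain CPM with p53 shRNA, against 167 and 170 in controls, but the groups overlapped in TMM-scaled CPM (221 and 202 with p53 shRNA, 271 and 158 in controls). The coding-intron sum, at 95.4 and 106 plain CPM with p53 shRNA and 76.4 and 82.0 plain CPM in controls, overlapped in TMM-scaled CPM likewise. Control 1, with a TMM factor of 0.637, lies apart from the factors of 1.12 to 1.25 of the other libraries, and in TMM-scaled CPM it was the highest in both sums.

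The 79 hairpins that did not pass edgeR's filter, called low here, are given as sums. MIR6125 and MIR9901 are among them, with counts high in p53 shRNA 1 alone. The 79 had 661 and 210 counts with p53 shRNA and 102 and 81 counts in controls, or 253 and 108 plain CPM with p53 shRNA and 92.8 and 86.3 plain CPM in controls. In TMM-scaled CPM this sum overlapped, at 236 and 90.05 with p53 shRNA and 150 and 80.2 in controls. Without MIR6125 the other 78 had 146 and 107 plain CPM with p53 shRNA and 91.8 and 85.2 plain CPM in controls, and overlapped in TMM-scaled CPM, at 136 and 88.8 with p53 shRNA and 149 and 79.2 in controls. The 51 hairpins with 3 to 9 counts had 38.0 ± 0.148 plain CPM with p53 shRNA and 30.5 ± 2.02 plain CPM in controls (SD, n = 2 each). In TMM-scaled CPM this last sum was 35.4 and 31.7 with p53 shRNA and 47.2 and 29.7 in controls. For each of these 3 sums, whether the groups separate turned on the scaling. The 119 hairpins with 1 or 2 counts had 26.8 and 24.2 plain CPM with p53 shRNA and 13.6 and 18.1 plain CPM in controls, and likewise overlapped in TMM-scaled CPM (25.0 and 20.2 with p53 shRNA, 22.1 and 16.8 in controls).

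Among the low hairpins, the 22 in coding exons had 142 and 34.0 plain CPM with p53 shRNA and 25.5 and 20.2 plain CPM in controls. Without MIR6125 the other 21 had 34.9 and 32.5 plain CPM with p53 shRNA and 24.6 and 19.2 plain CPM in controls. In TMM-scaled CPM both sums overlapped, the 22 at 133 and 28.3 with p53 shRNA and 41.3 and 18.8 in controls, and the 21 at 32.5 and 27.0 with p53 shRNA and 39.8 and 17.8 in controls. This class includes MIR6800 in MED25, a Mediator subunit gene (23 and 7 counts with p53 shRNA, 7 and 0 in controls). It also includes MIR3618 in DGCR8, the gene of Drosha's partner (6 and 17 counts with p53 shRNA, 2 and 5 in controls), and MIR21, a miRNA often raised in colon cancer, in an exon of VMP1 (2 and 3 counts with p53 shRNA, 0 and 3 in controls).

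The 39 low hairpins in coding introns had 59.5 ± 0.351 plain CPM with p53 shRNA and 47.5 ± 2.33 plain CPM in controls (SD, n = 2 each), but overlapped in TMM-scaled CPM (55.7 and 49.3 with p53 shRNA, 79.7 and 42.6 in controls). MIR551A in MEGF6 led them with 22 and 11 counts with p53 shRNA and 4 and 3 counts in controls. MIR559 lies in an intron of EPCAM, an epithelial adhesion gene, and had 8 and 3 counts with p53 shRNA and 4 and 1 counts in controls. MIR33A and MIR33B lie in SREBF2 and SREBF1, genes of the sterol regulators. MIR33A had 3 and 0 counts with p53 shRNA and 1 and 0 counts in controls, and MIR33B had 5 and 3 counts with p53 shRNA and 2 and 0 counts in controls.

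The 10 low hairpins outside genes had 83 and 13 counts with p53 shRNA and 10 and 15 counts in controls, and the 9 without MIR9901 had 29 and 13 counts with p53 shRNA and the same counts in controls. Scaled for depth, these 9 overlapped in plain CPM, at 11.1 and 6.70 with p53 shRNA and 9.09 and 15.98 in controls, and were lower in TMM-scaled CPM, at 10.4 and 5.57 with p53 shRNA and 14.8 and 14.9 in controls. MIR4532 was among them, with 12 and 2 counts with p53 shRNA and 0 and 0 counts in controls. Its summed counts, most of them from p53 shRNA 1, were at least 1.53-fold higher with p53 shRNA against a floor of 3 counts over the control group. As most counts come from 1 library, this ratio is no bound for the group. The 7 in introns of lncRNAs or pseudogenes had 18.8 and 7.73 plain CPM with p53 shRNA and 8.18 and 4.26 plain CPM in controls. MIR9902 led these with 20 and 1 counts with p53 shRNA and 5 and 0 counts in controls, followed by MIR6724, a repeated hairpin beside the ribosomal genes (10 and 5 counts with p53 shRNA, 2 and 2 in controls), and MIR4792 (14 and 3 counts with p53 shRNA, 1 and 0 in controls). The 26 low hairpins counted on outer flanks alone had 40.0 ± 6.78 plain CPM with p53 shRNA and 26.0 ± 8.45 plain CPM in controls (SD, n = 2 each). For these flanks the p53 shRNA libraries were above both controls in TMM-scaled CPM too, at 32.9 and 37.3, against 32.5 and 29.7 in controls. The nearest libraries of the groups, at 32.9 with p53 shRNA and 32.5 in controls, differed by less than the replicates of either group.

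**Figure D5:**
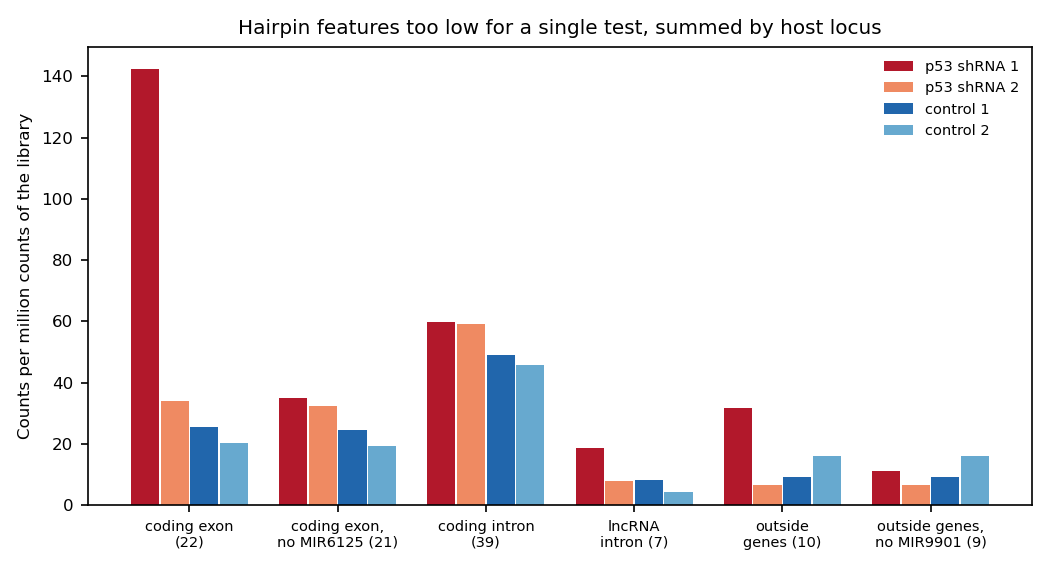
Sums of hairpins that did not pass edgeR's filter, in plain CPM, by host locus (number of hairpins in brackets), with a bar for each library. The first bar of the coding-exon group is high through MIR6125, and the bars beside it show the sum without that hairpin.

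By genomic position, with neighbours at most 10 kb apart, 12 of the 92 hairpins fell into 5 clusters of 2 or more and 80 stood alone. MIR191 and MIR425, in DALRD3 on chromosome 3, had 39 and 53 counts together with p53 shRNA and 15 and 7 counts in controls. MIR191 had 78.9% of these, and the groups did not overlap in plain CPM but did in TMM-scaled CPM. MIR106B, MIR25 and MIR93, in an intron of the replication helicase gene MCM7 on chromosome 7, had 6 and 14 counts together with p53 shRNA and 0 and 5 counts in controls. All 3 annotated members of this cluster were counted.

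The largest cluster by annotation was counted at few of its hairpins. It lies on chromosome 19 and has 44 hairpins with own bases, of which 6 had a count, with MIR516B2 and MIR516A2 above the minimum. The cluster as a whole had 8 and 25 counts with p53 shRNA and 2 and 10 counts in controls. MIR3960 and MIR2861, in an exon of the kinase gene CDK9, had 4 and 9 counts with p53 shRNA and 5 and 0 counts in controls. MIR3648, MIR3687 and MIR6724 on chromosome 21 had 42 and 83 counts with p53 shRNA and 39 and 13 counts in controls. Around MIR431, 7 hairpins with own bases lie within reach of each other, and MIR431 alone had counts.

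Lists were drawn up for p53 signalling and colon. Hairpins with a count were 4 of 10 with own bases in the p53-responsive list, 5 of 7 in the colon epithelium list and 4 of 5 in the list of miRNAs raised in colon cancer. Over all hairpins with own bases the share was 14.1%. The lists were chosen with earlier results of these data known, share hairpins and have few with own bases. Their counts therefore cannot be read against the 14.1%. Of 20 hairpins in the p53-responsive list 2 are among the 92. These were MIR141 (1 and 2 counts with p53 shRNA, 0 and 0 in controls) and MIR149 (1 and 2 with p53 shRNA, 0 and 0 in controls). The whole p53-responsive list had 2 and 4 counts with p53 shRNA and 1 and 1 counts in controls. In CPM its groups overlapped, at 0.715 and 1.72 with p53 shRNA and 1.48 and 0.991 in controls. Of 12 in the colon epithelium list, MIR7-1, MIR141 and MIR375 are among the 92. The whole list had 25 and 67 counts with p53 shRNA and 11 and 17 counts in controls. Most of these counts were on MIR7-1, which lies in an exon of HNRNPK, so the sum is no measure of colon epithelium. Of 13 raised in colon cancer by common knowledge, MIR135B, MIR21 and MIR183 are among the 92. That whole list had 8 and 8 counts with p53 shRNA and 3 and 7 counts in controls.

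The lists of other cell types likewise had too few hairpins with own bases to be read against the 14.1%. The stroma, muscle and neural lists had 0 counts, with 1, 3 and 3 of their hairpins holding own bases, and the blood list, with 2, had 0 and 0 counts with p53 shRNA and 0 and 2 counts in controls. Of 31 hairpins in the imprinted region of chromosome 14, 28 had own bases and MIR431 alone had a count. In the list of the ribosomal unit 5 features are among the 92, and the list had 408 and 304 counts with p53 shRNA and 298 and 433 counts in controls, most of them on MIR7641-2. In each list 0 hairpins were called by edgeR's test, and only 6 listed hairpins were in the fit.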

How the data were processed

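Whole-number counts of reads per annotated RNA were deposited by the authors and are not normalized. The build was GRCh38, and the tools named were Subread 1.6.3, BWA 0.7.17 and bcl2fastq 2.19, per the submitters' processing notes. The counting settings are not given in the sources used here. Own bases were found from the deposited coordinates, strand ignored. Hairpins were named by exact position in RefSeq or GENCODE 29 and placed in host genes of GENCODE 29, with host classes in a fixed order of precedence. RNAs with near-identical copies can share reads. Features without a count in any library were left out of the fits.

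Groups were compared by the quasi-likelihood test of edgeR 4.0.16 (R 4.3.3), with TMM factors of 1.13 and 1.25 for p53 shRNA and 0.637 and 1.12 for control, edgeR's filter on low counts, and Benjamini-Hochberg adjustment over 2780 features at 0.05. CPM uses these factors, and plain CPM, scaled by library totals, does not. SEs come from log2 CPM with a prior count of 2. Sums over hairpins got no test, and 2 libraries against 2 cannot give an exact permutation p below 0.333. The edgeR fit was first run on simulated counts with known changes. It had to recover them only in runs with far less spread between replicates than these libraries have, whose common coefficient of variation was 0.67. The simulation therefore does not show which changes the test could find here.

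Alternatives were library totals, DESeq2 1.42.0 size factors and Wald test, limma 3.58.1 voom, no filter or one of 10 CPM on the mean, leaving out each library, a block for replicate numbers, other host and cluster definitions, and, added after the data were seen, shares without MIR7641-2 and MIR6125 and hosts by exons of protein-coding transcripts only. Hairpins named are those tested, the 10 most counted, members of clusters, up to 4 of each host class and list, and those at the edge of the rule. Others in the text were picked with their values in view. The hairpins and lists were chosen with earlier results of these data known.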

Additional observations from a re-analysis of the deposited data

How the results depend on the processing

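Of 138 log2 changes of tested hairpins under the alternatives, 124 kept their direction and 14, in 6 hairpins, changed sign, while 0 passed the adjusted threshold. MIR3648 became 0.28 on library totals, 0.53 with no filter, 0.77 without control 1 and 0.35 without p53 shRNA 1. MIR3687 became 0.16 with no filter and 1.90 without control 1. MIR7641-1 became 0.086 on library totals, 0.46 with no filter and 0.99 without control 2. MIR516B2 became −0.046 with DESeq2 size factors, −0.94 without control 1 and −1.12 without p53 shRNA 2. MIR191 became −0.24 without control 2 and MIR7-1 −0.62 without p53 shRNA 2. With 1 library left out, the values reached −1.20 in MIR3648, −1.65 in MIR3687, −0.92 in MIR7641-1, 6.501 in MIR516B2 and 1.74 in MIR191 on the other side. MIR3656, MIR3687, MIR516B2 and MIR7641-1 did not pass a filter of 10 CPM on the mean, nor MIR3656 the filter without p53 shRNA 2, and these gave no value. The causes were not tested.

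The share of counts on the hairpins with p53 shRNA was 0.0559% with every counted hairpin and 0.0496% with hairpins of 10 or more counts. Outside ribosomal loci it was 0.0380% with p53 shRNA and 0.0273% in controls, and outside host exons 0.0140% and 0.0103%. Without MIR7641-2 it was 0.0416% with p53 shRNA and 0.0304% in controls, and without MIR6125 also 0.0361% and 0.0303%, so MIR7641-2 decided which group had the higher mean. With 1 library left out, the share was 0.0529% to 0.0538% with p53 shRNA and 0.0531% to 0.0742% in controls. There were 9 clusters with every counted hairpin included, and 19 hairpins outside genes when hosts on the opposite strand were ignored.

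With the replicate number as a block, 103 of 2780 features were called and 0 hairpins, whose smallest adjusted p was 0.428 (edgeR). Deviations of same-numbered libraries correlated at 0.395 over these features, but the labels give no reason to pair them. Depth limits the 51 hairpins under 10 counts to sums.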
